A study of Mus musculus with 2 samples.

Results

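The cells described here are 2666 keratinocytes of mouse back skin in which at least 4 of the 6 genes Nppb, Procr, Igfbp2, BC100530, Stfa3 and Fscn1 were found. They made up 1449 of 10160 cells in the WT library and 1217 of 9308 cells in the Chrna5-/- library, of 19468 cells in all. A cell was taken when at least 1% of its unique molecular identifiers (UMIs, counts of captured RNA molecules) came from Krt5 and Krt14 and when at least 4 of those 6 genes had a UMI. Fewer than 4 of 8 inflammatory genes (Tnip3, Ch25h, Tslp, Ccl20, Has2, Ptgs2, H2-M2 and Mill1) could have a UMI, and fewer than 3 UMIs of Krt79 were allowed. The members were thus chosen by measured values of these same libraries, and their levels of the 6 genes, called the rule genes here, are a description and not a finding. Krt6a, which gives the cells part of their working name, was not used to choose them.

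Each genotype was 1 single-cell library of dorsal skin from C57BL/6 mice, a wild-type (WT) library and a library from mice lacking Chrna5, the gene of the alpha-5 subunit of the nicotinic acetylcholine receptor. Both were labelled as vaseline-treated controls and taken on day 7 from females of 6 to 8 weeks. After a collagenase digest, cells that excluded the dye SytoxBlue were sorted as live. The labels name C57BL/6, C57BL/6N and C57BL/6J in different places, and their extraction text speaks of imiquimod-treated skin although both samples are labelled as vaseline controls. Neither the number of mice behind a library nor the deleted stretch of Chrna5 is stated in the labels. With 1 library per genotype there is no replicate check, and every difference below is between 2 libraries. Intervals cover counting error only.

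Keratin 5 and keratin 14 form the filaments of basal keratinocytes, the dividing layer of the epidermis and of the outer root sheath of the hair follicle. Keratin 6a, with its partners keratin 16 and keratin 17, is known from hair follicle epithelium and from epidermis that is wounded or inflamed. Nppb encodes the natriuretic peptide BNP, a hormone best known from the heart, and Procr encodes the endothelial protein C receptor, which binds protein C and its activated form. Igfbp2 encodes a secreted protein that binds insulin-like growth factors, Fscn1 encodes fascin, which bundles actin filaments, and Stfa3 and BC100530 belong to the stefin A family of cysteine protease inhibitors.

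The promoters of 5 of the 7 genes looked up were held by the RefSeq promoter table for build GRCm38.p6, namely Nppb, Procr, Igfbp2, Stfa3 and Fscn1. The bases upstream of 3 of them are shown because Nppb and Procr give the cells their working name and because Stfa3 was found in nearly every member. They run up to the first base of any annotated exon, 5′ to 3′ on the gene's own strand. Capitals mark TGANTCA, the site bound by AP-1, a dimer of Fos and Jun proteins. It was searched on both strands and it reads the same on either.
Nppb, chr4:147985650-147985787, plus strand: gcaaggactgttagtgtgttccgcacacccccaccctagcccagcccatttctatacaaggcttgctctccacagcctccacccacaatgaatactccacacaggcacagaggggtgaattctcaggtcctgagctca
Procr, chr2:155750967-155751116, plus strand: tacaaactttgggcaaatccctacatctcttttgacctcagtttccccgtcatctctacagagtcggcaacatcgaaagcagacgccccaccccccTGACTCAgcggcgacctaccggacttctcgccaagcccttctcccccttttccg
Stfa3, chr16:36455393-36455642, minus strand: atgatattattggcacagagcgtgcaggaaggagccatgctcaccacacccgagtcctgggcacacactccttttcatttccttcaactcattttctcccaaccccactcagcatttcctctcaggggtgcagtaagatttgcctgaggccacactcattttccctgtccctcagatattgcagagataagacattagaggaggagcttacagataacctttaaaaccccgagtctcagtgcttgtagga
The stretch before Procr holds 1 match, and those before Nppb and Stfa3 hold 0. The full Stfa3 window of 300 bases holds 1, at base 280, past the stretch shown. Of all 32817 promoter windows of 300 bases, 7.81% hold a match. A match is a run of letters only, and its absence says nothing of the factor.

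In GENCODE vM21 coordinates (GRCm38), Nppb lies at chr4:147985788-147987205 and Procr at chr2:155751117-155755471, both on the plus strand. BC100530 (chr16:36359382-36367748) and Stfa3 (chr16:36450537-36455392) lie on the minus strand of chromosome 16, and Krt6a (chr15:101689910-101694307) on the minus strand of chromosome 15. Of the distinct 31-base words in BC100530 transcripts, 35.1% also occur in Stfa1, whereas the highest share for Stfa3 with any gene compared was 0%. Krt6a and Krt6b have 45.9% and 50.3% of their words in common with each other. UMIs of BC100530, Stfa1, BC117090, Krt6a and Krt6b are uncertain to the extent that counting could split such reads.

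The members were among the deeper cells. WT members had a median of 18917 UMIs and knockout members one of 19262, against 12808 and 12624.5 over all cells that passed the filter. The comparison cells used below are the 1743 Krt5 Krt14 cells (870 WT, 873 knockout) with at most 1 rule gene, and their medians were 9976.5 and 9711 UMIs. A gene is more easily found in a deep cell, so depth moves with the rule. The 2 libraries had 34 cell barcodes in common, among them those of 6 WT and 3 knockout members. A Scrublet doublet score of 0.25 or more was given to 5.52% of WT and 7.48% of knockout members, which were kept. Chrna5 itself could not check the genotype in these cells, since 0 of 1449 and 0 of 1217 members had a UMI, which allows shares of up to 0.207% and 0.247% of members with a UMI and sets no limit on the share that expressed the gene. Over all cells that passed the filter, 12 WT and 3 knockout cells had one.

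The genes of the working name were each found in part of the members, and Nppb and Procr together in 628 of 1449 WT (43.3%) and 319 of 1217 knockout members (26.2%). Krt5, which with Krt14 was used by the rule, stood at 8405 CPM (UMIs of the gene for each 1000000 UMIs summed over the cells) in WT members and 8939 in knockout members. Krt14 stood at 15724 and 16262 CPM. Stfa3 had a UMI in 99.7% of WT and 100% of knockout members, and BC100530 in 99.2% and 99.9%. Both were also common over all Krt5 Krt14 cells, members included. Stfa3 was found in 84.3% of those cells in WT and 89.9% in the knockout, and BC100530 in 76.3% and 84.4%. Fscn1 was found in 73.9% and 74.1%, Procr in 66.0% and 61.8%, and Igfbp2 in 50.5% and 59.1%. Nppb was found in 69.9% of WT but 48.2% of knockout members, and 630 of 1217 knockout members carried no UMI of it. Krt6a, outside the rule, was found in 69.3% and 53.1%, against 23.3% and 13.2% of the comparison cells, which were shallower. Over all Krt5 Krt14 cells, members included, Krt6a was found in 50.5% and 33.1%.

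**Figure D1:**
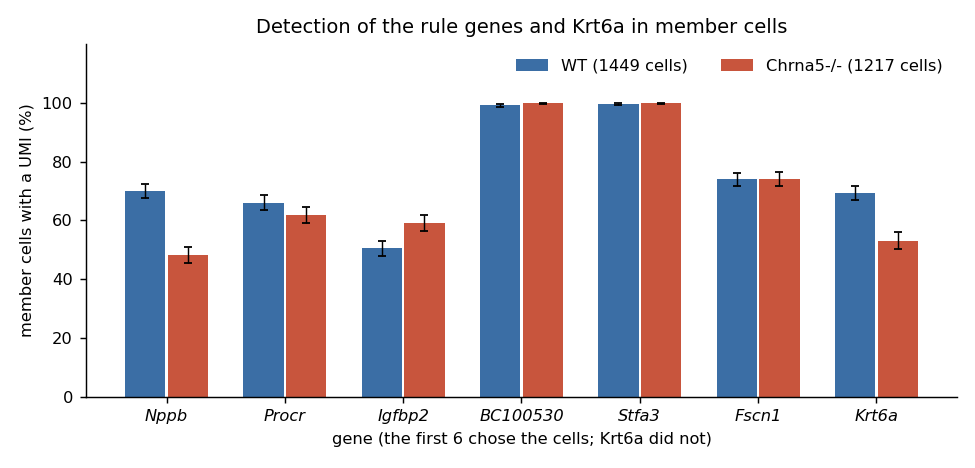
Share of cells with a UMI (percent) for the 6 rule genes and Krt6a in the members of each library, with exact 95% intervals. Stfa3 and BC100530 were found in 99.2% or more of members, Nppb in 69.9% of WT and 48.2% of knockout members.

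Free RNA was gauged in T cells, which should lack these genes. They were taken as cells with at least 4 of 8 T and innate lymphoid markers and under 0.5% of UMIs from Krt5 and Krt14. With every cell thinned to 2000 UMIs, Nppb was found in 34.1% of WT and 17.3% of knockout members and in 1.77% and 0% of T cells. Krt6a was found in 38.3% and 24.3% of thinned members and in 3.53% and 2.12% of T cells. Stfa3 was found in 86.6% and 93.2% of thinned members, but also in 14.3% and 25.5% of T cells. For BC100530 the T cell shares were 15.9% and 23.3%. A stefin UMI was thus also found in T cells more often than one of Nppb or Krt6a. T cells were shallower, with median depths of 2986.5 and 3101 UMIs before thinning.

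Nppb was uneven between cells. Per 10000 UMIs of a cell, WT members had a median of 0.983, a 90th percentile of 11.1 and a highest value of 99.6. In knockout members the same values were 0, 4.37 and 25.8. BC100530 was spread more evenly, with a median of 20.6, a 90th percentile of 54.9 and a highest value of 155.4 in WT members and 21.4, 71.6 and 195.4 in the knockout. Krt6a was also uneven, at 1.40, 13.0 and 101 in WT and 0.413, 7.96 and 87.4 in knockout members. In WT members the most frequent combination was all 6 rule genes, in 192 cells (13.3%). In the knockout it was Procr, BC100530, Stfa3 and Fscn1 without Nppb and Igfbp2, in 208 cells (17.1%), and all 6 were found in 92 (7.56%).

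The number of rule genes per cell formed a continuum with no gap at the threshold. Among the Krt5 Krt14 cells under the inflammatory and Krt79 limits, 954 WT and 1386 knockout cells had 3 rule genes, just outside, and 781 and 784 had 4, just inside. Krt6a stood at 344 CPM in WT cells with 3 rule genes and 497 with 4, and at 169 and 255 in the knockout. Stfa1, another stefin outside the rule, stood at 139 and 210 CPM in WT and at 266 and 348 in the knockout. Across 0 to 6 rule genes, Krt6a ran from 81.2 to 567 CPM in WT cells, with its highest value of 620 at 5 genes, and from 20.6 to 540 in the knockout. Krt17 ran the other way, from 1538 to 650 CPM in WT and from 639 to 305 in the knockout. Median depth ran along with the number of rule genes, from 8536 to 22410 UMIs in WT and from 8823 to 24094.5 in the knockout. Among cells of 15000 to 25000 UMIs, a range added after the data were seen, Krt6a still ran from 5.30 to 472 CPM and from 6.55 to 346. Its low ends there rested on 2 UMIs in 21 WT cells and 3 UMIs in 25 knockout cells. With 1 rule gene Krt6a stood at 132 CPM in 91 WT cells and 39.7 in 89 knockout cells of that range.

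**Figure D2:**
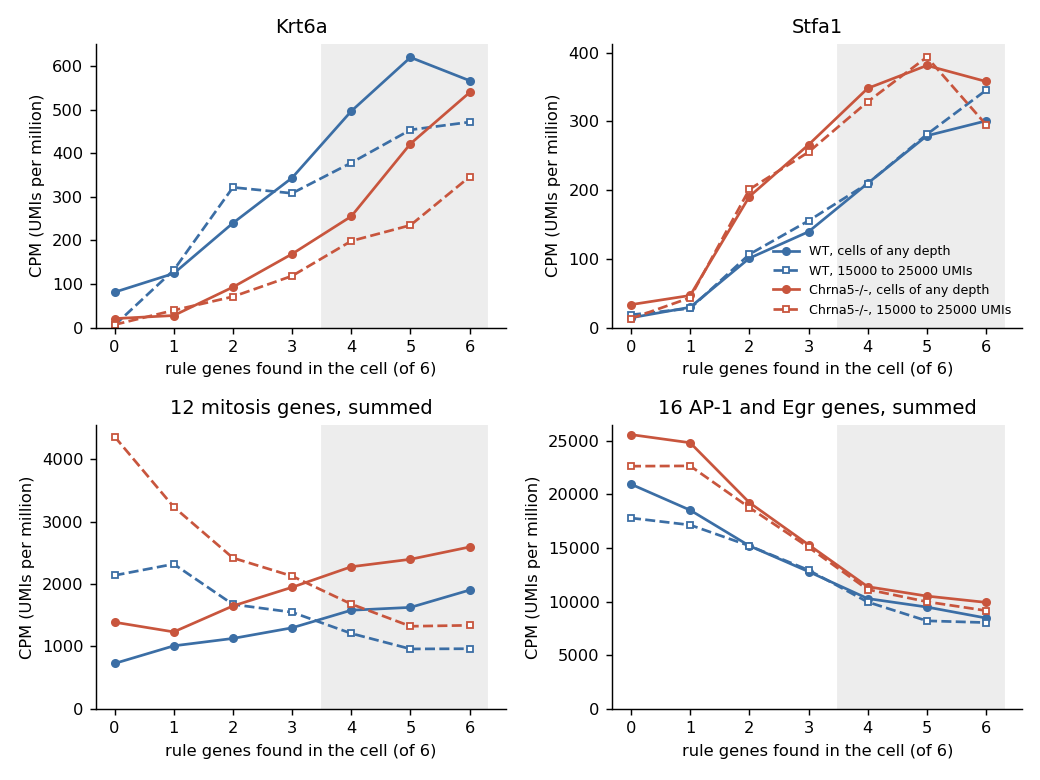
Level (CPM) of Krt6a, Stfa1 and the summed mitosis and AP-1 and Egr lists by the number of rule genes found in a cell, for cells of any depth (solid) and of 15000 to 25000 UMIs (dashed), with the members' range shaded. At any depth Krt6a was higher in cells with 4 rule genes than in cells with 3 in both libraries, without a step at the threshold of 4.

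Beside the comparison cells, stefins, Krt6a and several antimicrobial genes were higher in the members of both libraries. A gene is called higher or lower here when the ratio was at least 1.5 in either direction and its 95% counting interval left out 1. The members are a chosen class, so these are descriptions with no test. Of 11746 genes measured, 3.57% were higher and 5.44% lower in members in both libraries. Of the stefin A list, Stfa3 and BC100530 were used by the rule, and all 6 of the other measured genes were higher in both libraries. Stfa1 and BC117090 have 39.0% and 42.0% of their 31-base words in common with BC100530, so their counts may not be independent of the rule. Of the whole list, rule genes included, 5 of 6 measured were higher in cells of 15000 to 25000 UMIs and 5 of 5 in thinned cells. Stfa1 stood at 249 CPM in WT and 359 in knockout members against 25.7 and 43.7 in comparison cells. BC117090 stood at 13.3 and 14.5 against 1.41 and 1.41, and Csta1, human cystatin A's counterpart, at 32.5 and 36.5 against 8.32 and 7.89. The median over all genes was -0.001 in WT and -0.0088 in the knockout on the log2 scale. Comparison cells rich in Krt1 and Krt10 (1% or more of UMIs, 68 WT and 42 knockout) came closer to the members. Csta1 stood there at 26.4 and 25.4 CPM, and Stfa1 at 75.7 and 109. Inflammatory cells (879 WT, 381 knockout) had 4 or more inflammatory genes and fewer than 4 rule genes. Stfa1 stood there at 67.0 and 137, and Stfa3 was found in 78.6% and 88.7% of them.

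The stress keratins differed among themselves. Krt6a stood at 552 CPM in WT and 333 in knockout members against 113 and 26.0 in comparison cells. It stood at 417 and 88.7 in the comparison cells rich in Krt1 and Krt10, and at 181 and 50.9 in inflammatory cells. Krt17 was lower in members, at 821 and 408 against 1396 and 632. Krt16 stood at 831 and 527 against 702 and 336, which was higher in the knockout library only. Of the antimicrobial and alarmin list, 5 of 7 were higher and 2 lower, and in cells of 15000 to 25000 UMIs as in thinned cells 2 of the 4 measured were higher. Il1f9, which encodes the cytokine IL-36 gamma, stood at 26.3 and 22.5 against 6.68 and 5.53. F3, tissue factor, the starter of coagulation, stood at 137 and 129 against 78.5 and 58.6. Gsta4, a glutathione transferase, stood at 34.7 and 18.4 against 7.73 and 2.59. In comparison cells rich in Krt1 and Krt10, Il1f9 stood at 18.0 and 7.61, and Gsta4 at 21.6 and 7.61. Most genes of their lists were not higher in both libraries. Of 14 coagulation and plasminogen genes, which include Procr, 3 were higher and 0 lower. Of 18 cytokines and chemokines 1 was higher and 4 lower, and of 12 genes of the Nrf2 oxidative response 3 were higher and 0 lower.

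Among the genes named by their smaller ratio of the 2 libraries, Ggct, gamma-glutamylcyclotransferase, was found in 1287 WT and 1059 knockout members. Ggct stood at 321 CPM in WT and 294 in knockout members against 86.2 and 57.2 in comparison cells. Aim2, a sensor of DNA in the cytosol, stood at 12.5 and 10.7 against 2.69 and 1.06. Endou stood at 14.2 and 13.4 against 2.34 and 3.53, and 2610528A11Rik at 40.5 and 16.8 against 7.15 and 0.706. The alarmins S100a8 and S100a9 also ranked high, but few members held them. S100a8 stood at 9.27 and 7.96 against 0.820 and 1.06, was found in 46 and 22 members, and took 71.4% of its knockout UMIs from 1 cell. In knockout cells of 15000 to 25000 UMIs the log2 ratio of S100a8 over the comparison cells came to 0.58 from 2.91 and that of S100a9 to 0.39 from 3.45, both short of 1.5-fold, and S100a9 came to 0.30 in thinned knockout cells. Of the 10 lowest, Atp1b1, a subunit of the sodium pump, stood at 6.48 and 4.55 against 40.6 and 24.3. Bbox1, an enzyme of carnitine synthesis, stood at 16.9 and 17.5 against 62.4 and 58.9, and Ntrk2, a neurotrophin receptor, at 5.68 and 4.55 against 19.9 and 19.2.

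Immediate early genes were lower in the members. Of 16 genes of the AP-1 and Egr list, 8 were lower in both libraries and 0 higher. Fos stood at 1488 CPM in WT and 1859 in knockout members against 4005 and 5848 in comparison cells. Fosb stood at 762 and 877 against 2386 and 2414, and Egr1 at 558 and 620 against 1309 and 1630. The proteins of these genes are transcription factors switched on within minutes of a stimulus. Among cells of 15000 to 25000 UMIs, 8 of 16 were again lower. Krt77, a type II keratin, stood at 134 and 57.2 against 687 and 233, Cxcl14 at 144 and 104 against 594 and 345, and Klf2 at 60.4 and 71.4 against 230 and 286. Krt77 was uneven among the comparison cells, at 2875 and 1668 in those rich in Krt1 and Krt10. In those with at least 2 UMIs of Krt15 and 1 of Dlk2 it was 175 and 46.6, so knockout members stood above them. Of the outer root sheath and bulge list, 7 of 13 were lower, with Sox9 at 64.7 and 33.2 against 145 and 74.9. Of 8 basal keratinocyte genes 0 were called.

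The result for mitosis genes depended on how depth was handled. Over all cells, 12 of 12 were higher in the members of both libraries, with a summed level of 1647 CPM in WT members against 937 in comparison cells and 2344 against 1268 in the knockout. Among cells of 15000 to 25000 UMIs, 12 of 12 were lower, at 1090 against 2286 and 1547 against 3488. That range held 713 and 565 members but 112 and 114 comparison cells. In cells thinned to 5000 UMIs and chosen again, 0 of 12 were higher and 0 lower in both libraries. The list median of members over comparison cells was then 0.046 in WT and 0.305 in the knockout on the log2 scale. Of 14 DNA replication genes, 10 were higher over all cells and 0 within the range, and 3 of 13 measured were higher in thinned cells. No direction against the comparison cells is therefore given for dividing cells. The AP-1 and Egr sum kept its direction, at 9097 against 17257 CPM and 10634 against 22635 within the range.

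Krt6a divided the members along a second line. No UMI of Krt6a was found in 445 WT members (30.7%) and 571 knockout members (46.9%), and 10 or more per 10000 UMIs in 210 (14.5%) and 88 (7.23%). Krt15, a keratin of basal and bulge cells, stood at 3098 CPM without Krt6a and 622 with high Krt6a in WT members, and at 3330 and 694 in the knockout. Fabp5, a fatty acid carrier of differentiating and activated epidermis, ran from 279 to 1514 and from 236 to 2539. Sprr1b, a cornified envelope precursor, ran from 13.9 to 181 and from 18.5 to 262. The median depth ran from 16240 to 22917.5 UMIs and from 16993 to 26596.5. Krt1 and Krt10 together took 1% or more of UMIs in 6.76% of WT and 5.67% of knockout members, so some members also carried the keratins of spinous cells.

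Members were a slightly smaller share of the Krt5 Krt14 cells in the knockout library, and that direction depended on how many rule genes were asked for. They made up 1449 of 6076 such cells in WT (23.8%, exact binomial 95% interval 22.8 to 24.9) and 1217 of 6047 in the knockout (20.1%, 19.1 to 21.2). The ratio was 0.844 (0.781 to 0.911). With at least 3 rule genes it turned to 1.09, and with 3 of the 5 other than Nppb to 1.13. With at least 5 it was 0.651, and with each cell thinned to 5000 UMIs 0.594. Cells with exactly 6 rule genes were 4.44% and 1.73% of those under the inflammatory and Krt79 limits, and cells with 2 were 24.2% and 34.6%. The conditions on inflammatory genes also removed more WT cells with 4 or more rule genes, 725 against 274, and without both conditions the ratio was 0.687.

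**Figure D3:**
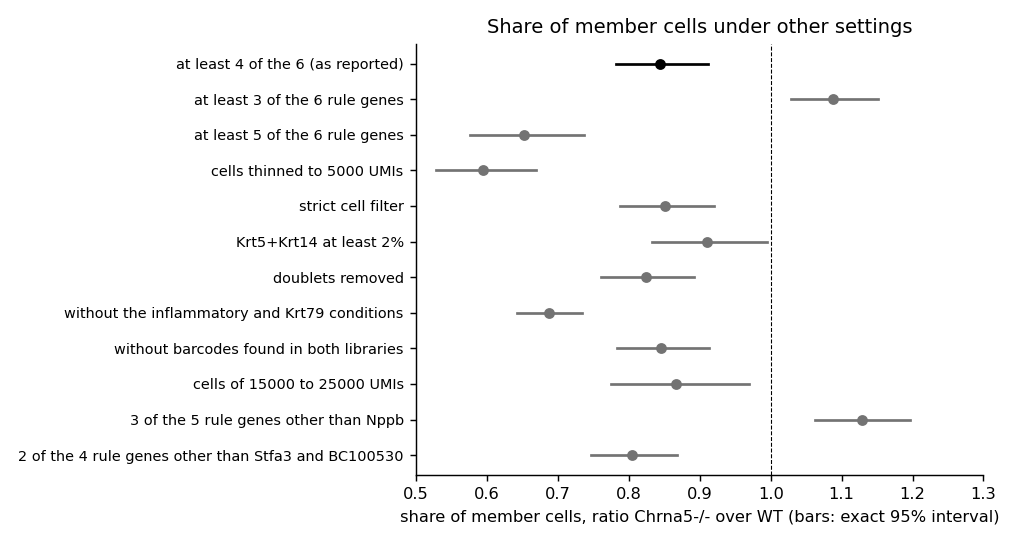
Ratio of the members' share of Krt5 Krt14 cells, knockout over WT library, under each setting, with 95% counting intervals. The ratio was 0.844 under the rule and stood above 1 when 3 rule genes, or 3 other than Nppb, were asked for.

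Within the members, most interferon response genes and stress keratins were lower in the knockout library, and some mitosis genes were higher. Of 12495 genes measured with at least 20 UMIs, 326 (2.61%) were higher and 537 (4.3%) lower in the knockout library. The median over all genes was -0.0048 on the log2 scale. RNA of other cell types moved too, and its part in these differences was not tested. Of 5 fibroblast markers 5 were lower in knockout members, at a sum of 38.3 against 16.1 CPM. Of 5 melanocyte markers 4 were lower (59.3 against 33.8 CPM summed), and of 8 T cell and innate lymphoid markers 5 (140 against 105). The endothelial, muscle and Merkel sums were at most 1.84 CPM in either library.

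**Figure D4:**
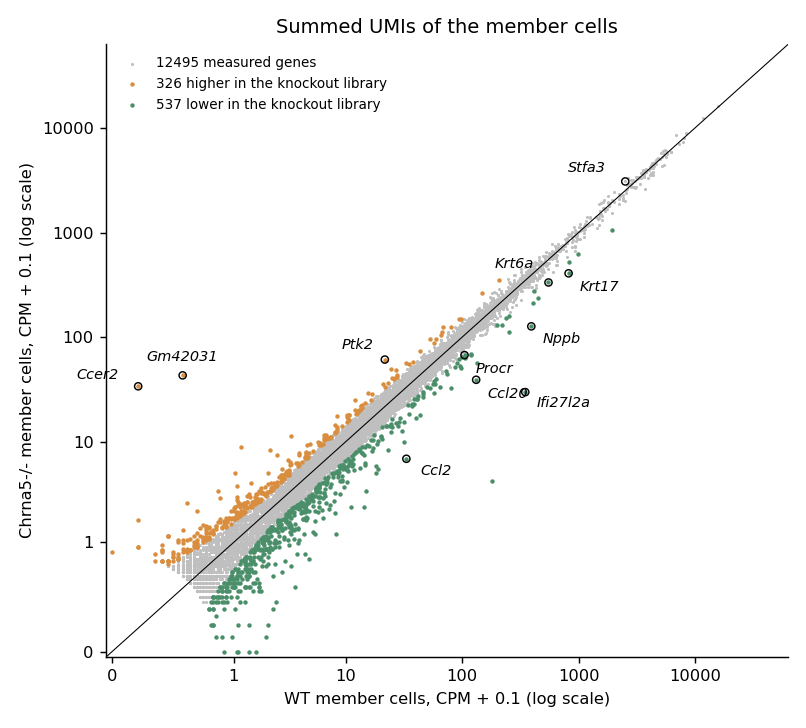
Level of each measured gene in WT members and knockout members (CPM + 0.1, log axes), with called genes coloured and a line of equal levels. Ifi27l2a stood far below the line, at 349 CPM in WT and 29.9 in the knockout, and Ptk2 above it, at 21.7 and 61.2.

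Of the secreted and surface proteins that give the cells their name, Nppb and Procr were lower in knockout members. Both helped choose the cells, so their values are a description. Nppb stood at 393 CPM in WT and 127 in knockout members, a ratio of 0.323 (0.311 to 0.336), and at 14.5 and 4.83 in comparison cells. Procr stood at 105 and 67.5, a ratio of 0.643 (0.606 to 0.682). Its log2 ratio of -0.64 came to -0.31 in thinned cells, -0.44 as a mean over cells, -0.48 in cells of 15000 to 25000 UMIs, and -0.57 with at least 5 rule genes, each short of 1.5-fold. Fscn1 (71.7 and 67.2 CPM), Igfbp2 (75.7 and 86.8), BC100530 (2646 and 3323) and Stfa3 (2516 and 3074) did not pass 1.5-fold. Thbd, thrombomodulin, which works with the protein C receptor, stood at 25.2 and 16.7 CPM (0.662), but on the log2 scale it was short of the call with at least 3 rule genes (-0.41), in thinned cells (-0.50), with doublets removed (-0.56) and in members with (-0.52) and without a Nppb UMI (-0.45). Of 14 coagulation and plasminogen genes, 2 were lower and 0 higher. Of the IGF system, 3 of 10 were lower and 1 higher. Igfbp6 stood at 6.15 and 2.16 CPM (0.351). Igfbp7 stood at 23.3 and 36.4 (1.56), short of the call with at least 5 rule genes (0.41 on the log2 scale), with 4, 5 and 6 rule genes weighted alike (0.56) and in members with a Nppb UMI (0.57).

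Of 4 stress keratins, 3 were lower in knockout members. Krt17 stood at 821 CPM in WT and 408 in knockout members, a ratio of 0.497 (0.485 to 0.508), and kept its call under every alternative run. Krt16 stood at 831 and 527 (0.633), short of the call as a mean over cells (-0.48 on the log2 scale). Krt6a stood at 552 and 333, a ratio of 0.604 (0.588 to 0.620). WT members held more cells with 5 or 6 rule genes, in which Krt6a was higher. With the cells of 4, 5 and 6 rule genes weighted alike, the log2 ratio of Krt6a came to -0.47 from -0.73, and with at least 5 rule genes to -0.42, both short of 1.5-fold. In comparison cells Krt6a stood at 113 and 26.0 CPM (0.230). Krt6b was found in 60 and 42 members and was not called.

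Interferon response genes were lower as a list. Of 19 measured, 14 were lower, 1 higher and 4 neither, with a median of -1.29 on the log2 scale against -0.56 in the comparison cells. Ifi27l2a, an interferon-induced gene, stood at 349 CPM in WT and 29.9 in knockout members, a ratio of 0.0856 (0.0794 to 0.0921). It was found in 1099 of 1449 and 311 of 1217 members. Bst2, which encodes tetherin, stood at 19.0 and 5.45 CPM (0.288), and Irf7, a transcription factor of the response, at 4.50 and 1.84 (0.409). Irf1 was the 1 gene higher, at 59.9 and 96.6 CPM (1.61). Its lowest log2 ratio under the alternatives run was 0.575, just short of 1.5-fold.

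Cytokines and growth factors were lower or not called. Of 20 cytokines and chemokines measured, 8 were lower and 0 higher. Ccl2, a monocyte attractant, stood at 33.3 and 6.82 CPM (0.205) and was found in 138 and 40 members. Il18 stood at 4.37 and 1.72 (0.395). Ccl20, an attractant of CCR6 cells, was among the genes limiting the choice of cells and stood at 132 and 39.2. Of 5 ligands of the EGF receptor measured, 3 were lower and 0 higher, and of the 4 genes Egfr, Erbb2, Erbb3 and Errfi1 0 were called. Epgn, epigen, stood at 406 and 213 CPM (0.525) and kept its call under every alternative run. Areg, amphiregulin, stood at 416 and 277 (0.667), which came to -0.37 on the log2 scale in cells of 15000 to 25000 UMIs, -0.52 in thinned cells, -0.50 as a mean over cells and -0.17 in members without a Nppb UMI. Hbegf (402 and 299) and Tgfa (40.4 and 29.8) were not called.

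**Figure D5:**
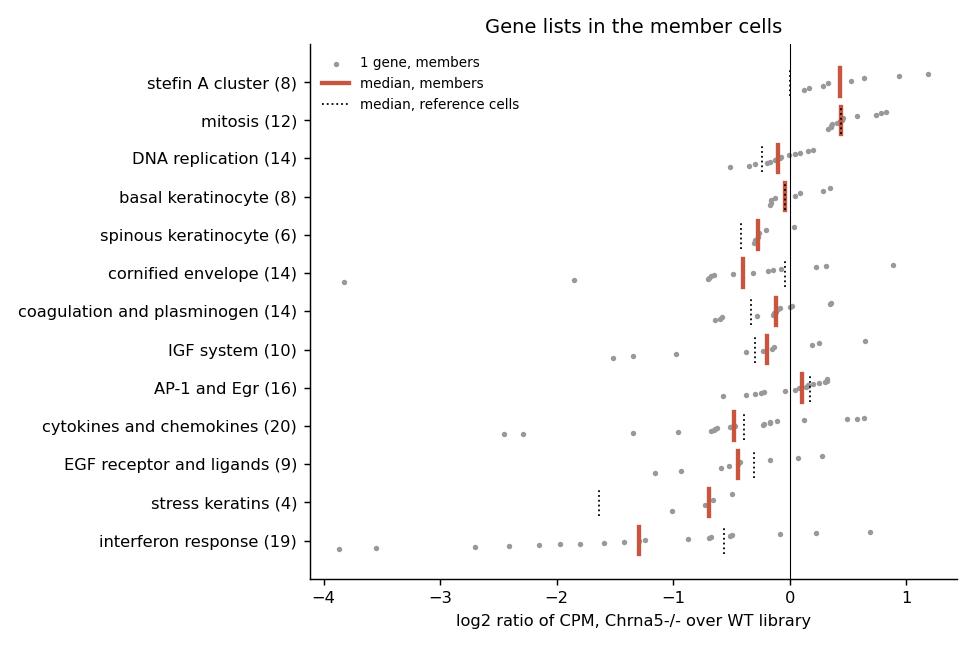
Log2 ratio of knockout over WT members for the genes of each list, each point 1 gene, with the medians of members (solid) and comparison cells (dotted). The interferon response median was -1.29, the stress keratin median -0.69 and the mitosis median 0.44.

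Mitosis genes were the list with the highest count above WT. Of 12, 3 were higher and 0 lower, and the list median was 0.44 on the log2 scale in members and 0.44 in comparison cells. Of 6 measured stefins outside the rule 2 were higher and 0 lower, and the median of the whole stefin A list was 0.43 in members. Of 4 metallothioneins 2 were higher and 0 lower. Mki67, a marker of cycling cells, stood at 206 CPM in WT and 355 in knockout members (1.72). Cenpf, a kinetochore protein, stood at 148 and 263 (1.77), and Hmmr, a spindle protein, at 66.8 and 112 (1.67). In cells thinned to 5000 UMIs, 2 or more mitosis genes were found in 44.6% of WT and 51.4% of knockout members, against 56.9% and 62.9% unthinned. In the comparison cells the thinned shares were 21.0% and 18.9%, and the unthinned 25.4% and 23.0%. Of 14 DNA replication genes 0 were called in members, and their median was -0.10.

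Among the genes named by size of ratio, several were alike in the comparison cells. Ptk2, which encodes focal adhesion kinase, stood at 21.7 CPM in WT and 61.2 in knockout members, a ratio of 2.82 (2.57 to 3.09), and at 27.2 and 67.9 in comparison cells. Zbtb16 stood at 3.33 and 11.3 (3.39) against 7.85 and 30.1 there, and Pls1, an actin bundler, at 2.49 and 7.37 against 4.57 and 9.54. Gm42031 stood at 0.302 and 43.2, with 9 and 408 members holding a UMI. Ccer2 had the highest ratio, but 99.5% of its knockout UMIs came from 1 cell. On the low side, Slc15a2, a peptide transporter, stood at 8.20 and 1.22 CPM (0.148), Lgals3bp at 3.63 and 0.314 (0.0864), and Oas1a, an interferon-induced enzyme, at 5.41 and 1.22 (0.225). Of the 326 genes higher in knockout members, 84 were also higher in knockout comparison cells and 8 lower. Of the 537 lower, 184 were also lower there and 9 higher. Of the genes not called in members, 309 were higher, 345 lower and 10978 neither in comparison cells. The UMI sums behind the calls were smaller there, at 8536385 in WT and 8493748 in the knockout against 29761379 and 25509145 in members.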

How the data were processed

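Single cells of dorsal skin were measured in 1 WT and 1 Chrna5-/- library. The authors deposited UMI counts per gene and cell, whole numbers with no normalization. The submitters' processing notes name Cell Ranger 3.0.2, Seurat 3.0 and the build mm10, whereas the matrix headers record software version 3.1.0. Barcodes with at least 500 UMIs, 300 genes and at most 20% mitochondrial UMIs were kept. The members and gene lists were chosen with earlier results of these data known. Counts were summed over cells and scaled to all UMIs of the class, and ratios of genes with at least 20 UMIs were given exact binomial 95% intervals. These intervals were checked on simulated independent counts only, a check that cannot speak to UMIs clustered in few cells. A count of 0 was read as up to 3 counts. Genes outside the lists were named by ratio among called genes with at least 100 UMIs, the 12 highest and 12 lowest without sex-linked genes, and, beside the comparison cells, the 15 highest and 10 lowest. Doublets were scored with Scrublet. Alternatives were thinning to 5000 UMIs, other numbers of rule genes, filters, scaling, doublet removal, free RNA subtraction and a depth range. Coordinates are from GENCODE vM21 and promoters from RefSeq. Python 3.11.15, numpy 2.4.6, scipy 1.17.1, pandas 2.3.3, scanpy 1.11.5 and matplotlib 3.10.9 were used.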

Additional observations from a re-analysis of the deposited data

Results flagged for a closer look

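Among the genes looked at by name, 2 were called higher in members than in comparison cells in WT and lower in the knockout library. The difference was not tested, since each genotype was 1 library. Ifi27l2a stood at 349 CPM in WT members against 180 in WT comparison cells, and at 29.9 against 45.7 in the knockout, so its log2 ratio of members over comparison cells was 1.565 lower in the knockout (-1.565). Dcn, which encodes the fibroblast matrix protein decorin, stood at 13.3 against 7.15 CPM and at 5.53 against 8.71, a difference of -1.557 on the same scale. Dcn had a UMI in 63 WT and 34 knockout members.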

How the results depend on the processing

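No paired analysis was possible because each genotype was 1 library. The ratio of the members' share, 0.844, was 1.088 with at least 3 rule genes and 1.128 with 3 of the 5 rule genes other than Nppb, both reversed, and 0.651 with at least 5, 0.594 in thinned cells and 0.687 without the inflammatory and Krt79 conditions. In cells thinned to 5000 UMIs, 286 genes were lower in knockout members, and 118 were higher and 345 lower in members than in comparison cells. With a minimum of 100 UMIs, 185 genes were higher and 316 lower in the knockout, fewer genes being tested, and in cells of 15000 to 25000 UMIs 96 were higher in members than in comparison cells. Thinning reversed Dcn (2.16 on the log2 scale), Isg15 (0.37), Nppc (1.78), Tnip3 (0.13) and the median of the cornified envelope list (0.16), and Pappa was 0.37 in members without a Nppb UMI. The cause was not tested. Of 1642 values of 103 genes between the libraries under the alternatives, 1262 stayed within the counting interval of the reported value, 375 moved beyond it and 5 called values changed sign. The depth range, the Nppb splits, leaving out the top cell and the rules without Nppb or the stefins were chosen after seeing the data. Depth limits the genes of few UMIs, such as Isg15, found in 53 and 10 members.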

Other observations

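Other gene groups within the members were also compared between the libraries. Of 19 cholesterol synthesis genes, 3 were lower in knockout members and 0 higher, with a list median of -0.34 on the log2 scale and -0.57 in comparison cells. Sqle, squalene epoxidase, stood at 45.8 CPM in WT and 26.5 in knockout members (0.579), and lost the call in thinned cells (-0.54 on the log2 scale). Of 19 keratinocyte transcription factors, 4 were lower and 0 higher. Sox9, a factor of hair follicle stem cells, stood at 64.7 and 33.2 (0.514), and Sox7 at 28.6 and 15.5 (0.541). Fst, which encodes the activin antagonist follistatin, stood at 80.1 and 33.0 (0.411). Of 8 upper follicle genes 5 were lower, with Defb6, a defensin, at 15.0 and 3.33 (0.222). Tgm3, a transglutaminase of the cornified envelope, was higher, at 15.7 and 29.0 (1.85).

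Chromosome 9 holds Chrna5. Of 719 measured genes on it, 28 (3.89%) were higher and 35 (4.87%) lower in knockout members. On the other autosomes the shares of 11371 genes were 2.55% and 4.33%.

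Sex-linked genes were left out of the naming rule, and 1 of them, Gm47283, was singled out after its values were seen. It is annotated on chromosome Y and stood at 181 CPM in WT members (1326 cells) and 4.16 in knockout members (99 cells), and at 237 and 2.59 in comparison cells. Mid1, on chromosome X, stood at 14.4 and 2.31 CPM in members, in 327 and 54 cells. Xist, the RNA of the inactive X chromosome, stood at 940 and 986 CPM in members, and both libraries are labelled female. No other gene annotated on chromosome Y is given here, and the sex of the cells was not tested.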
